A study of Mus musculus and Homo sapiens with 43 samples.

Results

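Transcript levels of 10 genes of trophoblast and surface ectoderm were followed through the differentiation of mouse embryonic stem cells that lack subunits of a Polycomb complex. They were the transcription factors Tfap2a, Tfap2b, Tfap2c, Gata2, Gata3 and Elf5, and the keratins Krt7, Krt8, Krt18 and Krt19. All 10 genes were present among the 35245 genes of the first deposited table and the 32231 genes of the second. The genes were chosen by name with the measured TPM of these same libraries, including the difference of Pcgf2 KO from WT, already in view. The tests below therefore describe known values and are not independent support for any direction. All 10 passed the filter on low values in the first table, but Tfap2b passed it only through WT NPC and Elf5 only through Pcgf2 KO NPC, so these genes had to differ there.

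AP-2 factors (Tfap2a, Tfap2b, Tfap2c) are transcription factors of trophoblast, surface ectoderm and neural crest, and Tfap2c is also expressed in germ cells and naive stem cells. Gata2 and Gata3 act in trophoblast, and also in blood and in some neurons, and Elf5 is a factor of trophoblast stem cells. Keratins form intermediate filaments from a type II and a type I partner. Krt8 (type II) and Krt18 (type I) are the first keratins of the embryo and mark simple epithelia, and Krt7 (type II) and Krt19 (type I) are further simple-epithelial keratins that are strong in trophoblast. Polycomb repressive complex 1 (PRC1) keeps many developmental genes silent in stem cells, and whether it does so for these 10 genes was not tested here. Pcgf2 and Phc1 encode subunits of its canonical form, and the SAM domain of Phc1 lets Phc1 molecules assemble into polymers.

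The cells were the mouse embryonic stem cell (ESC) line E14, wild type (WT) or edited with CRISPR/Cas9 to give Pcgf2 KO, Phc1 KO and Phc1-SAM KO. ESC were grown with LIF, 1 µM PD0325901 and 3 µM CHIR99021. Embryoid bodies (EB), aggregates that differentiate without these factors, were harvested on day 3 or on day 8. Neural progenitor cells (NPC) were made with 5 µM retinoic acid. For WT and Pcgf2 KO all 4 of these stages were sequenced, while for the Phc1 and Phc1-SAM knock-outs only the ESC and NPC stages were, with 2 RNA-seq libraries in each of the 12 groups. The labels do not say whether those 2 libraries came from separate cultures or clones, so p-values measure only the spread between libraries. Levels are in TPM, a share of all transcripts that is scaled for transcript length, and every ± is an SD of n = 2.

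Several libraries stood apart from their labels. Eif2s3y, a Y-linked gene, was at 0.42 to 0.45 TPM in WT ESC, 1.46 to 2.78 in WT EB day 3 and 1.42 to 1.74 in WT NPC. It was at 50.4 to 64.7 TPM in WT EB day 8 and at 45.7 to 76.1 in all Pcgf2 KO libraries. It was also low in Phc1-SAM KO ESC (2.04 to 5.15 TPM) and higher in Phc1-SAM KO NPC (34.7 to 36.6 TPM). What sets WT EB day 8 apart from the other WT groups therefore cannot be told apart from stage, and the same difference goes with genotype in ESC, EB day 3 and NPC but not in EB day 8. Pcgf2 was at 144 to 284 TPM in the libraries labelled Pcgf2 KO against 72.4 to 155 in WT, and Phc1 at 106 to 151 TPM in Phc1 KO, so gene-level transcripts did not show the deletions. The labels do not name the deleted exons, and a level measured outside them checks nothing.

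The labelled stages were checked against Pax6, Sox1 and Nes, which mark neural progenitors, and Pou5f1, which marks pluripotent cells; these 4 genes were chosen after the data were seen. WT NPC held Pax6 at 52.5 and 73.9 TPM, Sox1 at 5.05 and 8.05 TPM and Nes at 135 and 129 TPM. The libraries labelled NPC of Pcgf2 KO held Pax6 at 1.44 and 1.02 TPM, Sox1 at 0.42 and 0.37 TPM and Nes at 17.6 and 16.6 TPM. Pou5f1 was at 0.80 and 1.48 TPM in WT NPC, at 318 and 341 in Pcgf2 KO NPC, at 414 and 422 in Phc1 KO NPC and at 390 and 381 in Phc1-SAM KO NPC. In the second table Pax6 was at 6.5 and 4.75 TPM in Phc1 KO NPC and at 5.07 and 5.20 in Phc1-SAM KO NPC, Sox1 at 0.63 and 0.82 and at 1.39 and 1.39, and Nes at 14.3 and 15.8 and at 12.6 and 12.5. In Pcgf2 KO NPC the 3 neural markers were thus below their WT levels and Pou5f1 above its own; the second table was not tested against WT. The name NPC is kept for all these libraries as a label of the culture.

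The proximal promoters of Krt7, Krt18, Krt8 and Gata3 are shown, 4 of the genes that rose in Pcgf2 KO NPC. The AP-2 factor Tfap2c rose in the same libraries, and a link between these rises was not tested. Elf5 and Gata2 rose there as well, and their windows are described without the sequence. They are the 250 bases before the annotated start in RefSeq on GRCm38.p6, written 5′ to 3′ on the strand of the gene. Capitals mark matches to the AP-2 word GCCNNNGGC or the GATA word AGATAA, searched on both strands.
Krt7, chr15:101412153-101412402, plus strand: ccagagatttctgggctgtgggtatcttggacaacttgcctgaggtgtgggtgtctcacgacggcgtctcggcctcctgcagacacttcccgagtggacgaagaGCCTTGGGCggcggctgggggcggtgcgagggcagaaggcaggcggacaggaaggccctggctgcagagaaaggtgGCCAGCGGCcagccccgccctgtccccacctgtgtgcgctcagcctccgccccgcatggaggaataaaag
Krt18, chr15:102027966-102028215, plus strand: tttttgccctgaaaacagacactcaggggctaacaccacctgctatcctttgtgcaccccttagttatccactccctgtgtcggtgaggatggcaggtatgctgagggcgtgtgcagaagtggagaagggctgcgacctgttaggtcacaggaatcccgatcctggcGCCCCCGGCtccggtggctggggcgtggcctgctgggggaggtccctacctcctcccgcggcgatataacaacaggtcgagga
Krt8, chr15:102004343-102004592, minus strand: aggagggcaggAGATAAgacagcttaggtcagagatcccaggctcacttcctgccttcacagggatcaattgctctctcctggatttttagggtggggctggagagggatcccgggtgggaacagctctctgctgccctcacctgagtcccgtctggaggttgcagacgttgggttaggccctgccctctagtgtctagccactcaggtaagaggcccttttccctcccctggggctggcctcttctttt
Gata3, chr2:9878601-9878850, minus strand: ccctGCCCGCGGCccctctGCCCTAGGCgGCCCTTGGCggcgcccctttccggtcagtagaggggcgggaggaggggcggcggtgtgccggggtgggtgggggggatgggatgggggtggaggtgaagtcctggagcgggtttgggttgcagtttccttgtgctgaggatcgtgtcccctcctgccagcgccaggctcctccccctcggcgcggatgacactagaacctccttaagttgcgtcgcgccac

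The AP-2 word stood 2 times in the Krt7 window, 1 time in that of Krt18, 3 times in that of Gata3 and 0 times in that of Krt8, which held 1 GATA word. Of all 32851 RefSeq promoters of the same length, 13.7% held the AP-2 word and 9.99% the GATA word. These shares were not matched for CpG content. The GC box GGGCGG, present in 32.7% of promoters, stood 4 times in the Krt7 window and 2 times in that of Gata3. The AP-2 match of Krt7 146 to 138 bases before the start overlaps a GC box at 141 to 136. CpG dinucleotides numbered 16 in Krt7, 12 in Krt18, 19 in Gata3 and 3 in Krt8, against a median of 6 over all promoters. RefSeq lists 2 starts for Gata2, with 22 and 24 CpG, and the second held 1 AP-2 word. Promoters of 8 of the 10 genes were matched, 11 windows in all, and Krt19 and Tfap2c had no promoter entry. The entries of Tfap2a, Tfap2b and Elf5 held 0 AP-2 words. Krt8 and Krt18 lie side by side on chromosome 15 and are read away from each other, with starts 23874 bases apart and the lncRNA genes Gm36026 and Gm41404 between them. Krt7 lies on the same chromosome, 568905 bases from Krt8. A match describes letters in a window and is not a measured binding site.

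**Figure D1:**
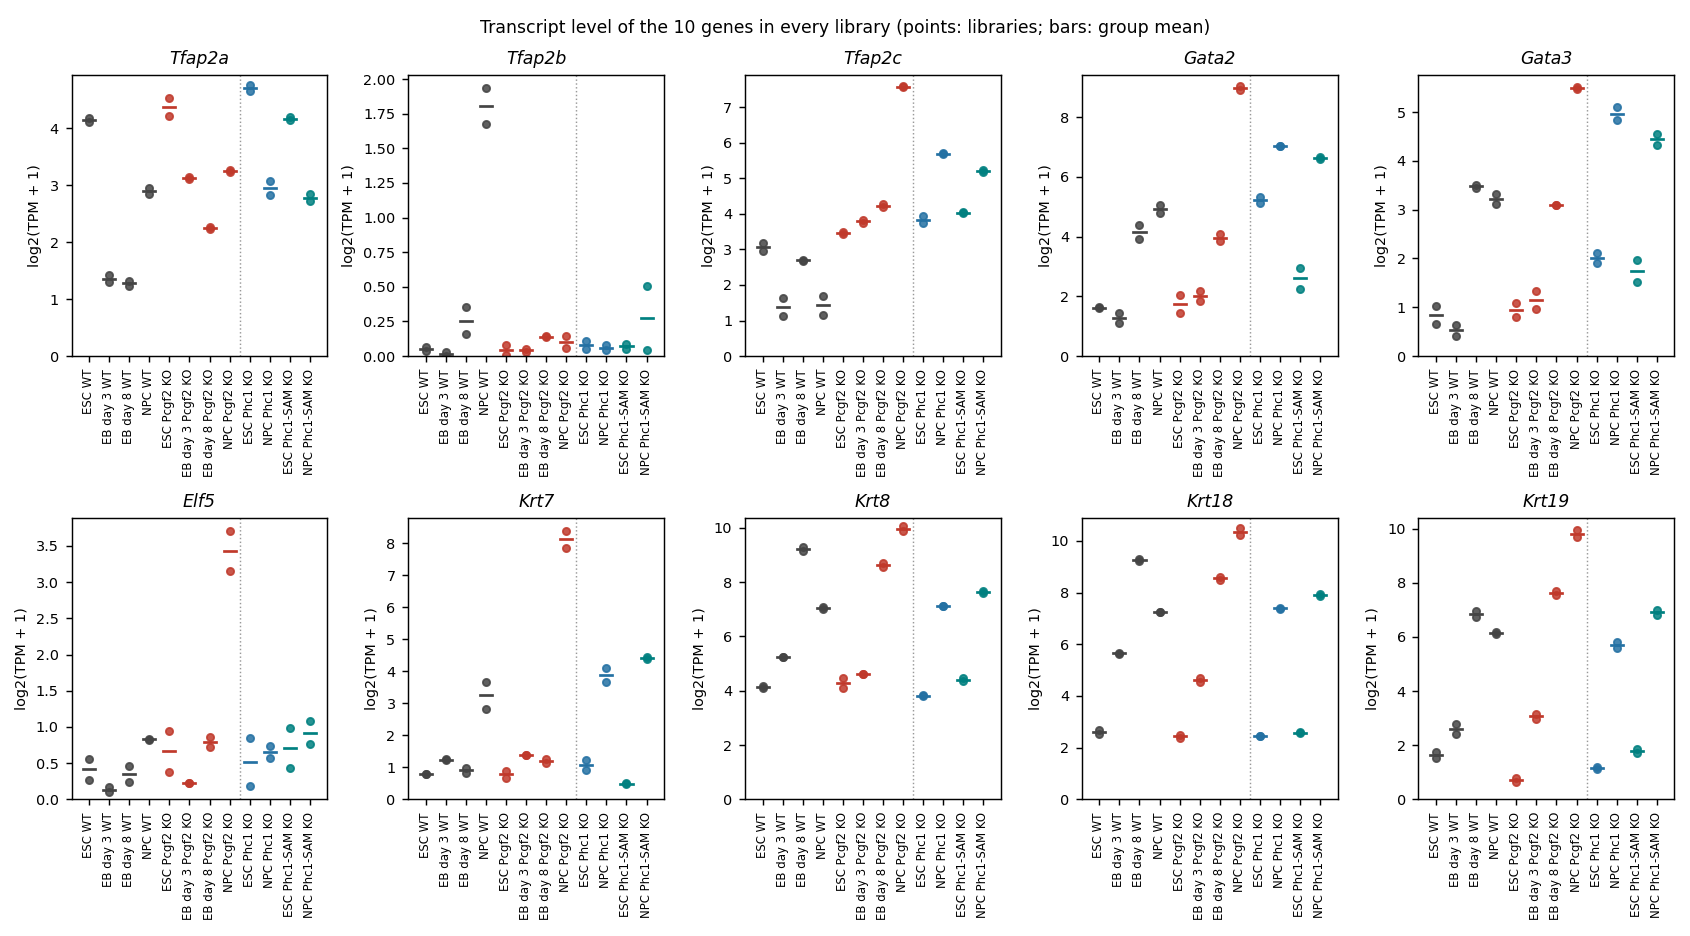
Level of each of the 10 genes in all 24 libraries, as log2(TPM + 1) on the vertical axis against the 12 groups. Points are libraries, bars are group means, and the dotted line separates the tables; 9 of the 10 genes have their highest first-table level in Pcgf2 KO NPC or ESC, and Tfap2b stands above 1 TPM in WT NPC alone.

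In WT cells the keratins and the GATA factors were higher in NPC than in ESC, while Tfap2a and Tfap2c were lower. The EB stages between did not follow these directions in every gene. Krt18 was at 5.42 and 4.74 TPM in ESC, 49.9 and 48.2 in EB day 3, 630 and 587 in EB day 8 and 150 and 152 in NPC. Krt8 was at 16.4 and 17.2 TPM in ESC, 36.9 and 36.7 in EB day 3, 621 and 570 in EB day 8 and 135 and 128 in NPC. Both keratins were therefore highest in EB day 8, and no 2 WT stages overlapped in their libraries, a property not counted over all genes. Krt19 followed with 1.92 and 2.37 TPM in ESC, 4.30 and 5.81 in EB day 3, 122 and 106 in EB day 8 and 71.5 and 68.9 in NPC. Krt7 differed from the other 3 keratins in its order of levels. It was at 0.73 and 0.72 TPM in WT ESC, 1.39 and 1.32 in EB day 3, 0.98 and 0.77 in EB day 8 and 6.03 and 11.8 in NPC, so that NPC alone stood above 1.5 TPM.

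Among the transcription factors of WT cells, Gata2 was at 2.14 and 2.04 TPM in ESC, 1.72 and 1.15 in EB day 3, 14.1 and 20.1 in EB day 8 and 32.5 and 26.5 in NPC. Gata3 was at 1.04 and 0.58 TPM in ESC, 0.55 and 0.33 in EB day 3, 9.86 and 10.4 in EB day 8 and 7.69 and 9.03 in NPC. Both GATA genes were at most at 2.14 TPM in ESC and EB day 3 and higher in EB day 8 and NPC. Tfap2a was highest in WT ESC, at 17.1 and 16.3 TPM, against 1.46 and 1.67 in EB day 3, 1.35 and 1.5 in EB day 8 and 6.18 and 6.76 in NPC. Tfap2c was at 8.10 and 6.77 TPM in ESC, 2.11 and 1.2 in EB day 3, 5.57 and 5.37 in EB day 8 and 1.24 and 2.23 in NPC. EB day 3 and NPC overlapped for Tfap2c, and EB day 3 and EB day 8 overlapped for Tfap2a. Tfap2b was seen above 1 TPM only in WT NPC, at 2.19 and 2.83 TPM. Elf5 did not reach 1 TPM in any WT library, with 0.08 to 0.79 TPM over the 8.

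Changes between WT stages were tested with limma on log2(TPM + 1), two-sided, with Benjamini-Hochberg adjustment over all 17938 genes tested in the first table, and a gene is called here where its adjusted p was under 0.05. Fold changes on this scale understate those of low genes. From ESC to EB day 3, 3 of the 10 genes rose and 2 fell, against 36.6% of all genes called higher and 19.1% called lower (55.8% in all). Median-of-ratios scaling turned the split over all genes from 6572 higher and 3431 lower to 4762 and 5384, and added falls of Gata2 (-0.56) and Gata3 (-0.46) to the members called. Krt18 rose by 3.04 (SE 0.09, limma adjusted p = 6.98e-10), Krt8 by 1.09 and Krt19 by 0.94 on the log2 scale, and Tfap2a fell by 2.79 and Tfap2c by 1.68. From EB day 3 to EB day 8, 6 rose and 0 fell, against 33.6% of all genes called higher and 24% lower (57.6% in all). With quantile normalization the split over all genes turned from 6024 higher and 4313 lower to 4821 and 5893, and a fall of Tfap2a (-0.39) was added. In that step Krt19 rose by 4.26, Krt8 by 3.98, Krt18 by 3.61, Gata3 by 2.95, Gata2 by 2.89 and Tfap2c by 1.31 on the log2 scale, with limma adjusted p from 8.86e-11 to 6.47e-05. The step from EB day 3 to EB day 8 in WT is also the step in which Eif2s3y changes.

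WT NPC differed from WT ESC in 9 of the 10 genes, 7 higher and 2 lower, where 53.4% of all genes were called higher and 21.6% lower (75% in all) and the median of all genes was itself 0.46 on the log2 scale. That median became -0.00 after median-of-ratios scaling, which turned the split over all genes from 9579 higher and 3868 lower to 6442 and 6620, and the members' counts were again 7 higher and 2 lower. Krt18 was higher by 4.65, Krt19 by 4.51, Gata2 by 3.30, Krt8 by 2.90, Krt7 by 2.45, Gata3 by 2.38 and Tfap2b by 1.75 on the log2 scale, and Tfap2c fell by 1.64 and Tfap2a by 1.24. Against WT EB day 8, WT NPC was higher in 4 genes (Krt7 by 2.34, Tfap2a by 1.62, Tfap2b by 1.55 and Gata2 by 0.77) and lower in 4, with -2.17 for Krt8, -2.0 for Krt18, -1.27 for Tfap2c and -0.69 for Krt19, where 38.1% of all genes were called higher and 20.1% lower (58.2% in all). After median-of-ratios scaling the split over all genes was 4683 higher and 5118 lower against 6831 and 3613, and Gata3 was called lower too (-0.47). Tfap2b, higher in WT NPC in both comparisons, passed the filter on low values only through WT NPC and had to be higher there. The call of Gata2 ended when WT EB day 8 library 1 (limma adjusted p = 0.105) or WT NPC library 1 (0.0823) was left out.

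In ESC, 9 of the 10 genes had no call between Pcgf2 KO and WT. Krt19 alone was called, at 0.57 and 0.74 TPM in Pcgf2 KO against 1.92 and 2.37 in WT, a fall by 0.92 on the log2 scale (SE 0.14, limma adjusted p = 0.000349). The count of 1 of 10 compares with 24.9% of all genes called higher and 11% lower in ESC (36% in all), and the genes' median of 0.10 with 0.10 over all genes. Median-of-ratios scaling turned the split over all genes from 4473 higher and 1979 lower to 3422 and 3675. Tfap2a was at 17.6 and 22.0 TPM against 17.1 and 16.3 (0.23, SE 0.11, adjusted p = 0.151), and leaving out Pcgf2 KO library 1 gave 0.38 with an adjusted p of 0.0318. Krt8 was at 20.9 and 16.4 TPM against 16.4 and 17.2 (0.13, adjusted p = 0.344), and leaving out Pcgf2 KO library 2 gave 0.30 with an adjusted p of 0.0281. The GATA factors, Elf5 and Krt7 lay between 0.30 and 3.09 TPM in Pcgf2 KO ESC and overlapped the range of WT ESC, 0.21 to 2.14 TPM.

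At EB day 3, Tfap2a, Tfap2c, Gata2, Gata3 and Krt19 were higher in Pcgf2 KO while Krt8 and Krt18 were lower. In all, 5 genes rose and 2 fell, against 16.7% of all genes called higher and 31.9% called lower (48.6% in all); with median-of-ratios scaling the split over all genes moved from 2989 higher and 5725 lower to 3986 and 4321. Tfap2c was at 12.4 and 13.3 TPM in Pcgf2 KO against 2.11 and 1.2 in WT, and rose by 2.41 (SE 0.18, limma adjusted p = 1.34e-06). Tfap2a was at 7.66 and 7.85 TPM against 1.46 and 1.67, and rose by 1.77 (SE 0.11, limma adjusted p = 4.57e-07). In both genes each knock-out library lay above each WT library, and the share of all genes for which this held was not counted. Naive pluripotency genes moved with them (11 of 12 higher, 0 lower, summing to 2951 to 3229 TPM against 862 to 1018), as did primordial germ cell genes (7 of 8 higher, 0 lower, 66.2 to 67.2 TPM against 26.3 to 27.5), and their part was not tested. The naive pluripotency and primordial germ cell lists have a gene in common. Krt18 was at 24.9 and 22.5 TPM against 49.9 and 48.2, a fall by 1.02 (SE 0.09, limma adjusted p = 6.62e-06). Krt8 was at 23.5 and 23.7 TPM against 36.9 and 36.7, a fall by 0.62 (SE 0.10, limma adjusted p = 0.000363). The lower level of this keratin pair at EB day 3 thus went with a higher level of Krt19, a type I keratin like Krt18, at 7.92 and 6.92 TPM against 4.30 and 5.81.

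The smaller rises at EB day 3 did not overlap WT in any library, a property not counted over all genes. Their calls ended when some libraries were left out. Gata2 was at 2.63 and 3.51 TPM against 1.72 and 1.15 (0.74, limma adjusted p = 0.0156), Gata3 at 0.95 and 1.52 against 0.55 and 0.33 (0.63, adjusted p = 0.00939), and Krt19 rose by 0.49 (adjusted p = 0.0126). The calls of Gata2 and Gata3 ended without WT library 2 (adjusted p = 0.12 and 0.0746) or without Pcgf2 KO library 2 (0.113 and 0.0955), with changes of 0.57 to 0.58 for Gata2 and 0.44 to 0.52 for Gata3. The call of Krt19 ended without WT library 1 (0.123) or without Pcgf2 KO library 1 (0.0912), with changes of 0.30 and 0.40.

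EB day 8 is the stage at which Eif2s3y was alike in both genotypes. There 3 of the 10 genes rose and 2 fell in Pcgf2 KO, against 20.6% of all genes called higher and 17.1% called lower (37.7% in all). Tfap2c was at 18.4 and 17.3 TPM against 5.57 and 5.37, a rise by 1.54 (SE 0.18, limma adjusted p = 5.37e-05). Tfap2a was at 3.83 and 3.68 TPM against 1.35 and 1.5 (0.97, adjusted p = 5.54e-05) and Krt19 at 185 and 206 against 122 and 106 (0.77, adjusted p = 0.00107). Krt18 was at 358 and 391 TPM against 630 and 587, a fall by 0.70 (SE 0.09, limma adjusted p = 0.000159). Krt8 was at 378 and 411 TPM against 621 and 570, a fall by 0.59 (SE 0.10, adjusted p = 0.000735). The directions of these 5 genes were those seen at EB day 3. Naive pluripotency genes (9 of 12 higher, 0 lower, 1420 to 1473 TPM in sum against 418 to 483) and primordial germ cell genes (6 of 8 higher, 0 lower, 115 to 122 TPM against 50.4 to 57.0) were again higher, and their part was not tested. Gata2 (16.1 and 13.4 TPM against 14.1 and 20.1) overlapped its WT range, and Gata3 (7.56 and 7.55 against 9.86 and 10.4) was lower without a call (-0.38, limma adjusted p = 0.103; 0.0466 with the spread of the EB day 8 groups alone).

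Pcgf2 KO NPC held the highest level of 8 of the 10 genes among the 8 groups of the first table, and each of these 8 was above WT NPC. Tfap2c was at 187 and 193 TPM against 1.24 and 2.23 in WT NPC, 109-fold higher by the ratio of means and 6.15 higher on the log2(TPM + 1) scale (SE 0.18, limma adjusted p = 1.45e-10). Gata2 was at 522 and 482 TPM against 32.5 and 26.5, 17.0-fold higher by the ratio of means (4.05, SE 0.22, adjusted p = 1.76e-08). Gata3 was at 43.6 and 44.7 TPM against 7.69 and 9.03, 5.28-fold higher (2.27, SE 0.17, adjusted p = 2.51e-07). Elf5 was at 7.88 and 12.1 TPM against 0.76 and 0.79, 12.9-fold higher (2.60, SE 0.21, adjusted p = 4.99e-07). No knock-out library of these 4 factors overlapped a WT library, and the share of all genes for which this held was not counted. Elf5 stayed under 1.2 TPM in the other 22 libraries of the study.

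The 4 keratins rose in the same libraries. Krt18 was at 1187 and 1431 TPM against 150 and 152, 8.66-fold higher by the ratio of means (3.10, SE 0.09, limma adjusted p = 1.94e-10). Krt8 was at 935 and 1059 TPM against 135 and 128, 7.57-fold higher (2.91, SE 0.10, adjusted p = 4.67e-10). Krt19 was at 817 and 980 TPM against 71.5 and 68.9, 12.8-fold higher (3.65, SE 0.14, adjusted p = 9.63e-10). Krt7 was at 229 and 335 TPM against 6.03 and 11.8, 31.7-fold higher (4.87, SE 0.24, adjusted p = 8.65e-09). Per length, the keratins Krt18, Krt8 and Krt19 were thus the most abundant of the 10 transcripts, and the 10 together summed to 3937 to 4544 TPM against 409 to 413 in WT NPC.

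The remaining AP-2 genes behaved otherwise. Tfap2b was at 0.04 and 0.10 TPM in Pcgf2 KO NPC against 2.19 and 2.83 in WT NPC, a fall by 1.70 (SE 0.11, limma adjusted p = 9.31e-08). Tfap2a was at 8.66 and 8.42 TPM against 6.18 and 6.76 (0.35, adjusted p = 0.0166). That call ended when the spread came from the NPC groups alone (adjusted p = 0.0621), without WT NPC library 1 (0.0929) or without Pcgf2 KO NPC library 1 (0.0686). In all, 9 of the 10 genes rose and 1 fell in NPC, where 31.5% of all genes were called higher and 34.7% lower (66.2% in all), and the genes' median was 3.00 against -0.03 over all genes. Elf5 and Tfap2b are among these counts, and the filter on low values fixed their direction. Without the EB day 8 libraries in the fit the count was again 9 higher and 1 lower.

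**Figure D2:**
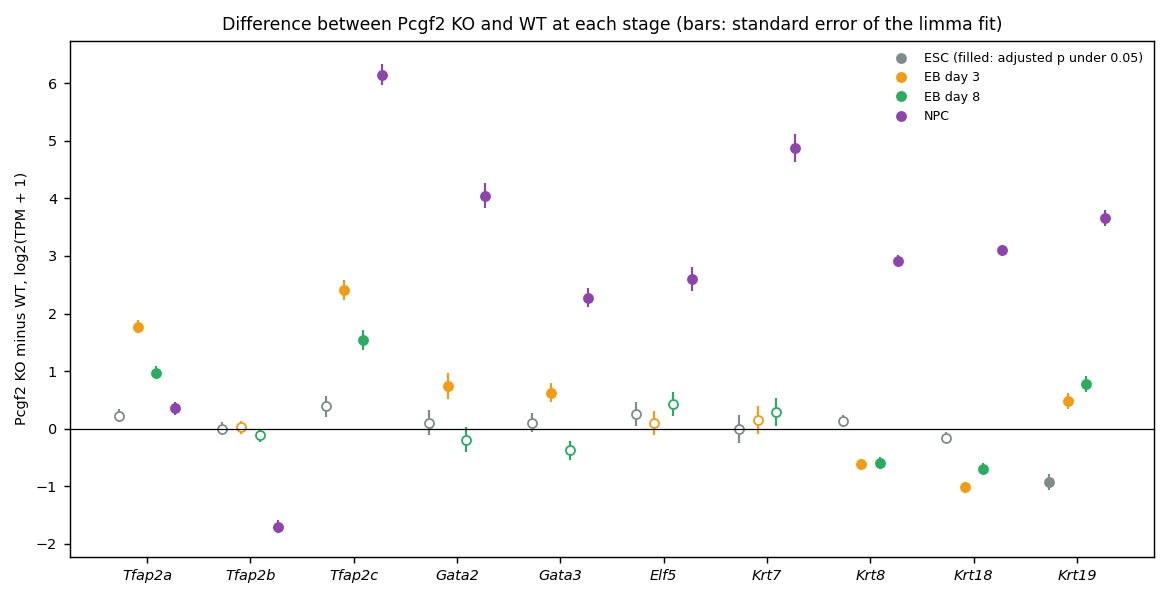
Difference between Pcgf2 KO and WT for each gene and stage on the vertical axis, in log2(TPM + 1), with the standard error of the limma fit as bars; filled points have an adjusted p under 0.05. The NPC points of 8 genes lie between 2.27 and 6.15, while Krt8 and Krt18 lie below 0 at EB day 3 and EB day 8.

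The size of the Pcgf2 KO difference was itself compared between stages. From ESC to NPC it moved upward in 8 genes and downward in 1 (Tfap2b), where 23% of all genes moved upward and 34.2% downward (57.2% in all; 5170 and 4831 genes after median-of-ratios scaling against 4132 and 6137), and Tfap2c moved by 5.76 (SE 0.25, limma adjusted p = 1.12e-08). From EB day 8 to NPC it moved upward in 8 genes and downward in 2 (Tfap2a and Tfap2b), where 25% of all genes moved upward and 30.6% downward (55.5% in all). Elf5, upward in both, and Tfap2b, downward in both, had to move so through the filter on low values. Krt8 and Krt18, lower in the knock-out at EB day 8 and higher in NPC, moved by 3.50 (adjusted p = 6.46e-09) and 3.80 (adjusted p = 3.02e-09) on the log2 scale. From ESC to EB day 3, 3 genes moved upward and 2 downward, where 8.54% of all genes moved upward and 31.1% downward (39.6% in all). Median-of-ratios scaling turned that split over all genes from 1532 upward and 5574 downward to 3122 and 3314, and that of the 10 genes to 5 and 1. From EB day 3 to EB day 8, 0 moved upward and 4 downward, where 26.2% of all genes moved upward and 12.6% downward (38.8% in all); that scaling turned the split from 4700 and 2266 to 2914 and 3288. The last 4 were Tfap2a, Tfap2c, Gata2 and Gata3, by -0.80, -0.87, -0.93 and -1.0, and without single libraries the calls of Tfap2c and Gata2 ended, with adjusted p up to 0.0757 for Tfap2c and 0.126 for Gata2.

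Within Pcgf2 KO cells, NPC stood above ESC in 8 of the 10 genes and below in 1, where 47.5% of all genes were called higher and 19.3% lower (66.8% in all; 5834 and 5745 genes after median-of-ratios scaling against 8512 and 3464). It stood above EB day 8 in 9 and below in 0, where 35.8% were called higher and 26.6% lower (62.4% in all). Elf5, higher in both, passed the filter on low values only through Pcgf2 KO NPC. Krt19 covered the widest range, 0.66 ± 0.12 TPM in ESC against 898 ± 115 in NPC (9.08 on the log2 scale, limma adjusted p = 4.87e-12). Gata2 was at 2.39 ± 0.98 TPM in ESC, 14.7 ± 1.93 in EB day 8 and 502 ± 28.5 in NPC. Krt7 was under 2 TPM in ESC, EB day 3 and EB day 8 of both genotypes. Tfap2c lay at 10.0 ± 0.33 TPM in Pcgf2 KO ESC, 12.9 ± 0.65 in EB day 3 and 17.8 ± 0.79 in EB day 8. Successive stages did not overlap, a property not counted over all genes. Neither step was called in the main fit (limma adjusted p = 0.155 and 0.0544). The second step gained a call under a filter of 5 TPM (limma adjusted p = 0.0468). It also gained one when the spread came from the Pcgf2 KO EB libraries alone (0.00741). In WT, Tfap2c was at 7.43 ± 0.94 TPM in ESC, 1.65 ± 0.64 in EB day 3 and 5.47 ± 0.14 in EB day 8. From ESC to EB day 3 of Pcgf2 KO, 3 genes rose and 1 fell, where 19.2% of all genes rose and 27% fell (46.2% in all). From EB day 3 to EB day 8, 6 rose and 1 fell, where 43% of all genes rose and 15.7% fell (58.7% in all; 5135 and 5019 genes after median-of-ratios scaling against 7714 and 2814). The call of Krt8 in the first of these steps (0.33, adjusted p = 0.0176) and that of Elf5 in the second (0.56, adjusted p = 0.0374) ended under 4 and 7 of the alternatives, with adjusted p from 0.0646 to 0.169 for Krt8 and from 0.0608 to 0.147 for Elf5.

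The proportions of the keratins differed between stages. The ratio of Krt8 to Krt18 in TPM lay between 2.84 and 4.48 in all ESC libraries of the 4 genotypes and between 0.74 and 1.05 in all 16 differentiated libraries. The type II keratin was thus in excess in ESC, and the pair was near parity elsewhere. The ratio of Krt19 to Krt18 was 0.09 and 0.12 in WT EB day 3 and 0.32 and 0.31 in Pcgf2 KO EB day 3. It was 0.19 and 0.18 in WT EB day 8 against 0.52 and 0.53 in Pcgf2 KO EB day 8, and 0.48 and 0.45 in WT NPC against 0.69 and 0.68 in Pcgf2 KO NPC. Pcgf2 KO libraries had the larger share of Krt19 at all 3 differentiated stages, and the smaller one in ESC, with 0.12 and 0.18 against 0.35 and 0.50. The ratio of Gata2 to Gata3 was 12.0 and 10.8 in Pcgf2 KO NPC and 4.23 and 2.94 in WT NPC.

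**Figure D3:**
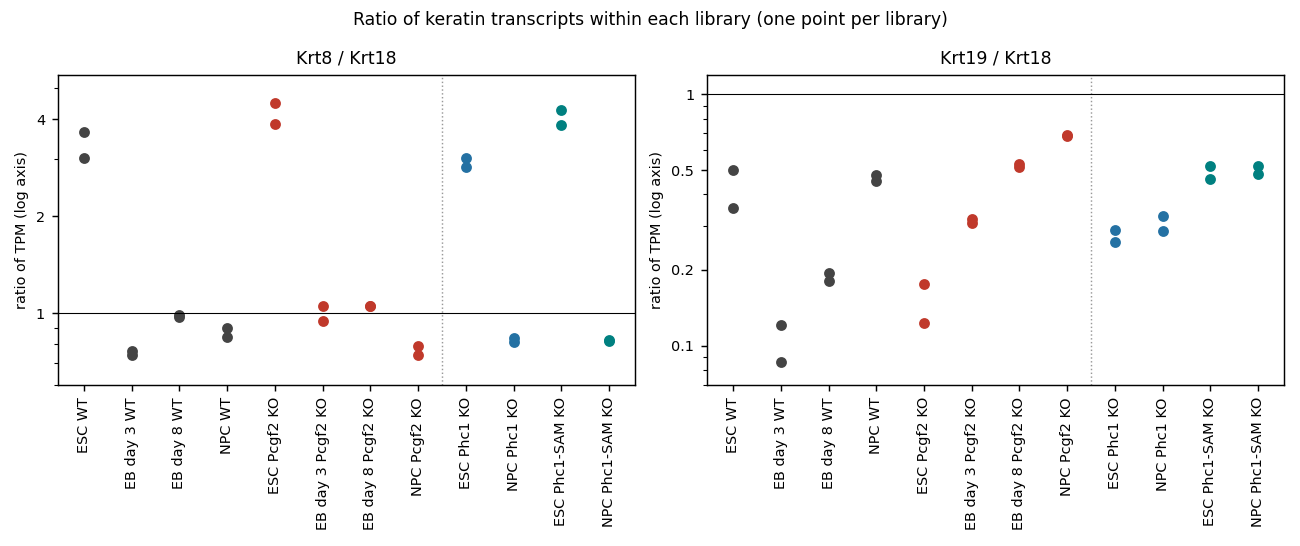
Ratio of Krt8 to Krt18 (left) and of Krt19 to Krt18 (right) in TPM on log axes, with 1 point per library in 12 groups. The 8 ESC libraries lie at 2.84 or above in the left panel and all differentiated libraries at 1.05 or below.

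In the second table Phc1 KO libraries were tested against Phc1-SAM KO libraries, over 15775 genes. They were not tested against WT or Pcgf2 KO, which were in the other table. Tfap2b (at most 0.42 TPM) and Elf5 (0.14 to 1.11 TPM) did not pass the filter of 1 TPM in 2 libraries, so 8 of the 10 genes were tested. In ESC, 3 rose and 2 fell in Phc1 KO, against 30.9% of all genes called higher and 12.8% lower (43.8% in all). Median-of-ratios scaling turned that split from 4877 and 2027 to 3231 and 4226, with falls of Tfap2c (-0.41) and Krt18 (-0.32) added. Gata2 was at 33.8 and 39.6 TPM in Phc1 KO ESC against 6.78 and 3.75 in Phc1-SAM KO ESC, 6.97-fold higher by the ratio of means (2.63, SE 0.21, limma adjusted p = 0.000109). Gata3 was at 2.72 and 3.31 TPM against 1.88 and 2.91 in the same libraries, so the groups overlapped, and the ratio of Gata2 to Gata3 was 12.4 and 12.0 in Phc1 KO ESC against 3.61 and 1.29.

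Tfap2a was at 24.0 and 26.2 TPM in Phc1 KO ESC against 16.6 and 17.3 (0.54, limma adjusted p = 0.00657), a call that ended with quantile normalization (0.25, adjusted p = 0.0971). Krt8 was at 12.9 and 13.4 TPM against 19.3 and 21.0 and fell by 0.58 (SE 0.06, adjusted p = 0.000285), and Krt19 at 1.17 and 1.27 against 2.60 and 2.26 fell by 0.62 (adjusted p = 0.00427). Krt7 was at 0.89 and 1.37 TPM against 0.38 and 0.41 (0.60, adjusted p = 0.0301), and its call ended in 5 alternatives with adjusted p from 0.0635 to 0.209. Phc1 KO ESC also held Eif2s3y at 14.0 and 15.8 TPM against 2.04 and 5.15, and Vim at 1142 TPM against 425 on average; their part in these differences was not tested.

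In NPC, 1 of the 8 genes tested rose and 3 fell in Phc1 KO against Phc1-SAM KO, where 2.52% of all genes were called higher and 1.52% lower (4.04% in all). Median-of-ratios scaling turned that split from 397 and 240 to 253 and 315. Krt19 was at 47.1 and 55.4 TPM against 128 and 112, a fall by 1.21 (SE 0.11, limma adjusted p = 0.005). Krt18 was at 164 and 168 TPM against 246 and 232 and Krt8 at 137 and 137 against 203 and 190, each a fall by 0.52 (adjusted p = 0.00603 and 0.0076). Tfap2c was at 51.0 and 50.01 TPM against 35.1 and 36.3 and rose by 0.49 (adjusted p = 0.0206). Leaving out 1 library ended the calls of Tfap2c (adjusted p from 0.09 to 0.141), Krt8 (0.0562 to 0.0823) and Krt18 (0.0526 to 0.074), and the count of called genes dropped to 1, without Phc1 KO library 1, without Phc1 KO library 2 or without Phc1-SAM KO library 1. Gata2 was at 129 and 130 TPM against 101 and 96.8, Gata3 at 33.2 and 27.4 against 22.5 and 19.0, and Krt7 at 11.7 and 16.1 against 20.6 and 19.8, with no call. Visceral and definitive endoderm genes moved with the keratins in this comparison: 0 rose and 10 fell of 12 tested, with a median of -1.0, and their part in the keratin difference was not tested.

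From ESC to NPC, both knock-outs of the second table showed 7 genes higher and 1 lower (Tfap2a) of 8 tested, where 35% of all genes were called higher and 27.8% lower in Phc1 KO (62.8% in all) and 43.8% higher and 23.8% lower in Phc1-SAM KO (67.6% in all; 5332 and 5248 genes after median-of-ratios scaling against 6909 and 3752). Krt18 rose by 4.94 and 5.33, Krt19 by 4.55 and 5.14, Krt8 by 3.29 and 3.22 and Gata3 by 2.96 and 2.69 in Phc1 KO and Phc1-SAM KO. Gata2 rose by 1.80 in Phc1 KO, from 36.7 ± 4.09 to 130 ± 0.24 TPM, and by 4.04 in Phc1-SAM KO, from 5.26 ± 2.14 to 98.8 ± 2.84 TPM. Krt7, among the 7 higher genes, was at 0.38 to 1.37 TPM in the ESC libraries and passed the filter on low values only through NPC. Its rise is therefore no support. Tfap2c rose by 1.85 and 1.17. In WT it was lower in NPC than in ESC, and the tables were not set against each other by a test. The change of Phc1-SAM KO from ESC to NPC goes with that of Eif2s3y, and these cannot be told apart.

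Other genes of the same tissues were taken from lists named with earlier results of these data known. Of 24 further trophoblast genes, 20 passed the filter on low values; in Pcgf2 KO NPC against WT, 19 of these rose and 0 fell, with a median of 3.61, beside 31.5% of all genes higher, 34.7% lower and a median of -0.03; the same shares apply to the NPC lists that follow. Rhox6, a homeobox gene of placenta and germ line, was at 247 and 308 TPM against 1.01 and 1.68. Rhox9, of the same family, averaged 234 TPM against 1.21. Cdx2, a factor of trophectoderm, was the gene without a call, at 5.74 and 3.95 TPM against 6.84 and 4.82. Eomes, a factor of trophoblast stem cells and mesendoderm, was at 8.78 and 8.53 TPM against 0.13 and 0.19. It averaged 17.3 TPM in WT ESC and 11.5 in Pcgf2 KO ESC, and was lower in Pcgf2 KO NPC than there (-0.37, limma adjusted p = 0.0086). Of the 20 trophoblast genes tested, 18 were higher in Pcgf2 KO NPC than in Pcgf2 KO ESC, and Eomes alone was called lower. Beside these, 47.5% of all genes were called higher and 19.3% lower. Hand1, a factor of trophoblast giant cells and of extraembryonic mesoderm, was at 32.5 and 34.4 TPM in Pcgf2 KO NPC, 1.73 and 1.04 in WT NPC and 560 and 589 in WT EB day 8. The giant cell and spongiotrophoblast genes Tpbpa, Prl3d1, Prl3b1 and Ctsq were under the filter. In this list and the NPC lists that follow, genes that passed the filter only through Pcgf2 KO NPC had to rise there. How many did so was not counted.

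Of 20 surface ectoderm and epidermis genes, 18 were tested, and in NPC 13 rose and 2 fell with a median of 1.44. The list summed to 326 to 341 TPM in WT ESC, 209 to 212 in WT NPC and 1251 to 1371 in Pcgf2 KO NPC. Against Pcgf2 KO ESC, 14 of the 18 were higher in Pcgf2 KO NPC and 0 lower, beside 47.5% and 19.3% of all genes. Sfn, an epithelial 14-3-3 gene, was at 113 and 125 TPM in Pcgf2 KO NPC against 1.02 and 1.86, Grhl3, an epidermal factor, averaged 45.4 against 2.87, and Cdh1, E-cadherin, 440 against 43.5. Of the markers of basal epidermis, Krt14 rose by 2.79 (limma adjusted p = 5.57e-08), at 8.40 and 9.94 TPM against 0.34 and 0.62. Trp63 rose by 0.82 (limma adjusted p = 6.1e-05), at 1.17 and 1.0 TPM against 0.28 and 0.08. It passed the filter on low values only through Pcgf2 KO NPC, so it had to differ there and its p-value is no support. Krt5, under the filter, was at 0.40 and 0.19 TPM against 0.06 and 0.06. Of 18 other keratins and junction genes, 14 were tested, and 12 rose and 2 fell with a median of 1.06. Vim, the intermediate filament of mesenchyme and neural progenitors, averaged 46.2 TPM against 616, and the desmosomal genes Pkp2 and Dsc2 averaged 69.9 against 11.3 and 38.7 against 6.88. Without the EB day 8 libraries the counts were 18 of 19 higher for trophoblast, 13 higher and 2 lower for surface ectoderm, and 12 and 2 for keratins and junctions.

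Markers of other cell states moved with the 10 genes in Pcgf2 KO NPC. All 12 naive pluripotency genes rose, with a summed level of 2506 to 2572 TPM against 48.8 to 52.9 in WT NPC, and 7 of 8 primordial germ cell genes rose, summing to 150 to 173 TPM against 20.5 to 22.7. These lists have a gene in common. Tfap2c belongs to both of those programmes as well, and their part in its rise was not tested. Genes of other tissues that use GATA or AP-2 factors were mostly lower: 2 of 12 blood and endothelium genes rose and 10 fell, 1 of 12 neural crest genes rose and 10 fell, and 1 of 10 spinal interneuron genes tested rose and 8 fell. In bulk RNA, fewer cells of a type and less RNA per cell cannot be told apart.

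**Figure D4:**
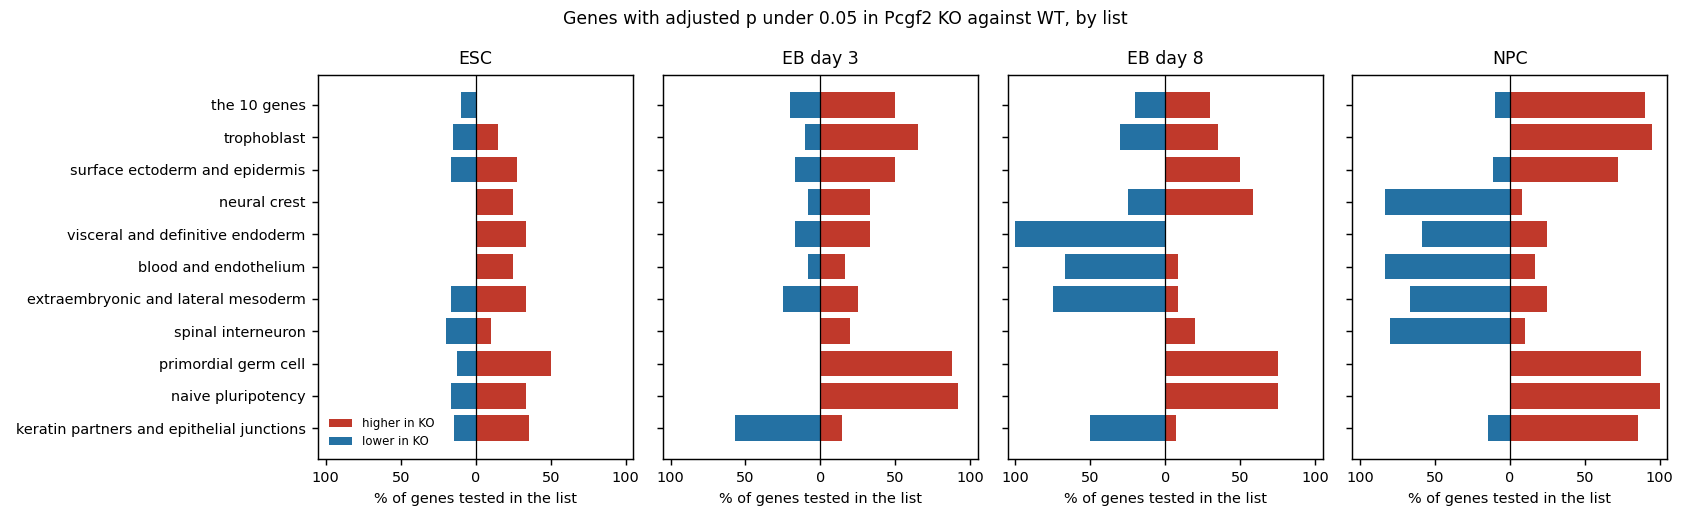
Share of the genes tested in each list that had an adjusted p under 0.05 in Pcgf2 KO against WT, to the right for higher and to the left for lower, at the 4 stages. In NPC the 10 genes (9 higher, 1 lower), trophoblast genes (19 of 20 higher) and naive pluripotency genes (12 of 12 higher) lie to the right, and neural crest genes (10 of 12 lower) to the left. Genes that passed the filter on low values through 1 NPC group alone, as Elf5 and Tfap2b did, had to differ there.

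At EB day 3, where 16.7% of all genes were higher and 31.9% lower (median -0.11), 13 of 20 trophoblast genes rose and 2 fell (median 0.68), 9 of 18 surface ectoderm genes rose and 3 fell, and 2 of 14 keratins and junction genes rose and 8 fell (median -0.42), next to the lower Krt8 and Krt18. Ets2 and Eomes were the trophoblast genes that fell, averaging 5.26 against 13.4 TPM and 13.7 against 28.3. At EB day 8, 7 of 20 trophoblast genes rose and 6 fell, beside 20.6% of all genes higher and 17.1% lower, and 9 of 18 surface ectoderm genes rose and 0 fell. Hand1 fell from an average of 575 TPM in WT to 264 in Pcgf2 KO, and Phlda2, an imprinted placental gene, from 278 to 68.8. All 12 endoderm genes tested fell at EB day 8, with a median of -1.78, as did 9 of 12 extraembryonic and lateral mesoderm genes and 8 of 12 blood and endothelium genes. Endoderm also expresses Krt8, Krt18 and Krt19, and the part of these genes' cells in the lower Krt8 and Krt18 was not tested. In ESC, 3 of 20 trophoblast genes rose and 3 fell, beside 24.9% of all genes higher and 11% lower, and Phlda2 fell from 97.9 to 11.0 TPM on average.

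In Phc1 KO against Phc1-SAM KO, 19 trophoblast and 16 surface ectoderm genes were tested. In ESC, 4 trophoblast genes rose and 5 fell, beside 30.9% of all genes higher and 12.8% lower, a split that turned under rescaling. Prl2c2, a placental hormone gene of a family of near-identical copies among which reads can be split, was at 170 and 177 TPM against 4.33 and 3.87. In NPC, beside 2.52% of all genes higher and 1.52% lower, 0 trophoblast genes rose and 1 fell, and 0 surface ectoderm genes rose and 4 fell, among them Wnt6, at 6.75 against 12.9 TPM on average, Cldn4, at 97.9 against 137, and Perp, at 26.4 against 34.9. Rhox6 was at 49.1 and 47.3 TPM in Phc1 KO NPC and 48.2 and 46.1 in Phc1-SAM KO NPC, against 1.42 to 1.82 in the ESC of both.

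The genes whose pattern was most like each of the 10 were looked up by Pearson's r of log2(TPM + 1) over the 8 group means of the first table, among 13696 genes. The 8 points share their differentiation steps and genotypes, and r is given as a description. Krt8 and Krt18 had r = 0.97 with each other, Gata2 and Gata3 0.97, and Elf5 and Krt7 0.95, whereas Tfap2a had -0.60 with Krt18 and 0.31 with Tfap2c. Elf5 averaged 9.97 TPM in Pcgf2 KO NPC and at most 0.78 in the other groups, so each r of Elf5 rests largely on that group. Krt7 (282 TPM there, at most 8.89 in the other groups) and Tfap2c (190, at most 17.8) also lean on it. The genes most like Krt8 were Tnfaip2 and Baiap2l1, those most like Krt18 were Dsc2 and Enpp5, and those most like Krt7 were Elmod1 and Wnt7b, all at 0.99 or above. Gata2 was closest to Paqr7 and Mbnl2 (0.99 each), Gata3 to Sprr1a and Tinagl1 (0.99 each) and Elf5 to Rhox12 and Arhgef37 (0.99 each). Krt19 was closest to Setd2 (0.99) and Fosl2 (0.98), Tfap2c to Cdin1 and Gabrp (0.97 each), and Tfap2a to Jam2 (0.99) and Abcb1b (0.97). Tfap2b never averaged 5 TPM and was not matched.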

How the data were processed

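RNA-seq was deposited by the authors as TPM per gene in 2 tables; the submitters' processing notes name kallisto and mm10 among other tools, and no version or annotation release was given there. Column totals were 997222 to 1004730 in the first table and 975902 to 980200 in the 8 knock-out columns used of the second; 4 further columns of that table were not used. TPM keep no counts, so depth is unknown. Libraries had 13131 to 15374 genes at 1 TPM or more, and the libraries of a group correlated at 0.992 to 0.995 across genes.

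The 10 genes, the lists and the tests were chosen with earlier results of these data known. Every gene that reached 1 TPM in 2 or more libraries of a table entered the fit by limma 3.58.1 (R 4.3.3; lmFit, then eBayes with trend) on log2(TPM + 1), one mean per group over the 16 or the 8 libraries, two-sided, with Benjamini-Hochberg adjustment within each of 20 comparisons and a threshold of 0.05. On simulated data of the ESC comparison of Pcgf2 KO with WT (17938 genes), 85% of changes of 1 and 100% of changes of 2 on the log2 scale were recovered, and 7.5% of the calls were false. Only 100 genes were changed by each size, none of them with a low mean level, and the groups did not differ otherwise. These shares therefore do not carry over to genes near 1 TPM or to comparisons in which many genes change. From each list were named at most 3 called genes with the largest change among those averaging 5 TPM in a group, plus Cdx2, Eomes, Hand1, Trp63, Krt5 and Krt14; Rhox6 in the second table, Pax6, Sox1, Nes and Pou5f1 were added after their values were seen. 1 gene that this rule names is not reported here. Replicate numbers did not pair the libraries. Alternatives were another pseudocount (0.1), no filter or 5 TPM, median-of-ratios or quantile scaling, a replicate block, only the groups compared, each library left out, and, added after the data were seen, no EB day 8 libraries. Promoters came from RefSeq (GRCm38.p6).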

Additional observations from a re-analysis of the deposited data

Results flagged for a closer look

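The Pcgf2 KO difference from WT was not the same at all stages. Each value here is the change of that difference on the log2(TPM + 1) scale, as a contrast of the limma fit with p adjusted over all genes, and all the genes named were known from earlier results of these data.

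Between ESC and EB day 3 the difference moved by 1.55 for Tfap2a, 2.02 for Tfap2c and 1.41 for Krt19, and by -0.76 for Krt8 and -0.86 for Krt18. The calls of Krt8 (limma adjusted p = 0.145 by median-of-ratios, 0.18 by quantiles) and, with quantile normalization, of Krt18 (0.0999) ended under rescaling.

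Between EB day 3 and EB day 8 it moved by -0.80 for Tfap2a, -0.87 for Tfap2c, -0.93 for Gata2 and -1.004 for Gata3. Between ESC and NPC it moved by 5.76 for Tfap2c, 4.88 for Krt7, 4.57 for Krt19, 3.94 for Gata2, 3.26 for Krt18, 2.78 for Krt8, 2.35 for Elf5 and 2.17 for Gata3, and by -1.70 for Tfap2b.

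Between EB day 8 and NPC it moved by 4.61 for Tfap2c, 4.59 for Krt7, 4.24 for Gata2, 3.80 for Krt18, 3.50 for Krt8, 2.88 for Krt19, 2.65 for Gata3 and 2.17 for Elf5, and by -0.62 for Tfap2a and -1.59 for Tfap2b. The contrasts with EB day 8 also span the change of Eif2s3y within WT, whose part was not tested. In the contrasts with NPC, Elf5 and Tfap2b had to move through the filter on low values.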

How the results depend on the processing

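Over 2300 alternative values of 192 single-gene results, 2214 kept their direction and side of the threshold, 50 lost the call, 36 gained one and 0 changed sign. The number of the 10 genes called in Pcgf2 KO against WT ESC was 2 with quantile normalization, where Krt18 was added, and 1 to 2 when single libraries were left out, against 1. For the change of the Pcgf2 KO difference from EB day 3 to EB day 8 it was 2 to 4 with single libraries left out, against 4. For Phc1 KO against Phc1-SAM KO in NPC it was below the main count of 4 whichever library was left out, and 1 at the lowest. The call of Tfap2c ended in each of those fits. Over all genes, calls in Pcgf2 KO against WT ESC numbered 4098 with only the groups compared, against 6452. In Phc1 KO against Phc1-SAM KO NPC they numbered 364 with only the groups compared and 65 to 150 with a library left out, against 637. Median-of-ratios scaling moved the median of all genes from 0.10 to -0.01 in Pcgf2 KO against WT ESC, from -0.11 to 0 at EB day 3, and from 0.13 to -0.05 in Phc1 KO against Phc1-SAM KO ESC, while the 10 genes in Pcgf2 KO NPC gave 9 higher and 1 lower under both rescalings. Elf5 and Tfap2b are in that count, with their direction fixed by the filter on low values. TPM keep no counts, so the precision of genes near 1 TPM (Elf5, Tfap2b, Krt7 and Gata3 in early stages) is known only from 2 libraries.

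Replicate numbers did not pair the libraries: deviations from group means correlated at -0.18 to 0.13 over 28 pairs of groups in the first table and -0.03 to 0.02 over 6 pairs in the second. With a replicate block the counts of the 10 genes called were 1, 7, 5 and 10 for Pcgf2 KO against WT in ESC, EB day 3, EB day 8 and NPC, as without it, and 302 genes were called in Phc1 KO against Phc1-SAM KO NPC.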
